A study of Homo sapiens with 18 samples.

Results

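The regions described here are enhancers of the prostate cancer cell line LNCaP that sit at a transcription start site while the chromatin there gave no sign of being open. They were chosen by 3 conditions. The centre of the enhancer lay within 1 kb of a start site of the GENCODE basic set on hg19, no DNase I site of LNCaP overlapped it, and it shared no base with an ATAC-seq peak of either condition. The DNase I sites were taken by the authors from ENCODE data on LNCaP and were not measured in the libraries of this series. These conditions left 3890 regions of 94527 enhancers in all (4.12%), called closed start enhancers below. Of the 82547 enhancers without a DNase I site, 4217 lay within 1 kb of a start (5.11%), where 4.78% of the genome lies, and 327 of these were left out because an ATAC-seq peak touched them.

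The STARR-seq assay, run on fragments of the whole genome, gave the enhancer activity from 1 input plasmid library and 2 output replicates harvested 72 h after electroporation. The plasmid fragments came from sheared human genomic DNA that was not LNCaP's own, and the transfected cells were kept in charcoal-stripped serum, which is low in androgen. Accessibility was measured by ATAC-seq in 3 libraries of cells treated with the histone deacetylase inhibitor TSA (100 ng/ml, 24 h) and 3 libraries of DMSO-treated cells (24 h). Gene expression was measured by mRNA-seq in 3 TSA-treated, 3 DMSO-treated and 3 untreated libraries, 18 libraries in all. The cells given TSA or DMSO were also kept in charcoal-stripped serum, for 72 h before treatment. The deposited lists pool the replicates of each assay, so the values below have no replicate error and the depth of each library is unknown.

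In STARR-seq a genomic fragment is placed downstream of a minimal promoter, and a fragment that acts as an enhancer raises its own copy number among the transcripts. The fragment is read on a plasmid, away from the chromatin of its own locus, so sequence that is closed in the cell can still score. A promoter is the stretch around a transcription start where RNA polymerase assembles, and many promoters also work as enhancers when they are moved. Promoters of housekeeping genes usually lie in CpG islands with open chromatin, while starts of tissue-specific genes, noncoding RNAs and pseudogenes are often closed. The tumour suppressor p53 binds a pair of adjacent half-sites and can bind them in closed chromatin, and interferon regulatory factors bind repeats of GAAA at the promoters of antiviral genes.

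The regions had been described beforehand as lying at silent genes, and the data bear this out for about 1 gene in 2. Of the 3890 regions, 1107 lay within 1 kb of a start of a gene in the mRNA-seq table, 1046 genes in all. The authors' average expression was under 1 CPM for 549 of these genes (52.5%, 95% Wilson interval 49.5 to 55.5%) and at or above 1 CPM for the other 497 (47.5%). Of all 22336 genes of the table, 7530 (33.7%) were under 1 CPM. The share rests on the limit and on the genes counted, since it was 31.9% under a limit of 0.25 CPM and 87% with regions that have no gene in the table counted as under 1 CPM. The regions are therefore named here by their closed chromatin and not by the activity of the gene. That average covers TSA-treated as well as DMSO-treated libraries, and whether it includes the untreated ones is not given in the sources used here. As a check of the cell line, all 10 luminal prostate markers examined were between 4.41 (KLK2) and 9.55 (CDH1) on the log2 CPM scale. Of 14 markers of other cells, 7 were under 0, among them the leukocyte gene PTPRC at -1.89 and the basal gene TP63 at -1.89. The other 7 were above it, with COL1A1 at 6.77, KRT5 at 6.23 and VIM at 5.88, and their part in the results was not tested.

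The sequences that stood out among the strongest closed start enhancers were pairs of p53 half-sites. A half-site has 10 bases, with a core of C, 2 bases that are each A or T, and G, and with 3 purines before and 3 pyrimidines after it. Both half-sites stand next to each other in the stretches below, read from the plus strand of GRCh37. Capitals mark the pair. The match is complete in all of them except at CDKN1A, where 2 of the 12 positions outside the cores differ. At CDKN1A and PTCHD4 only the site and 5 bases on either side are shown, since the stretch lies in or beside an untranslated region.
CDKN1A, chr6:36644221-36644250: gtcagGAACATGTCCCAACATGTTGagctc
PTCHD4, chr6:48078929-48078958: tcactGGGCAAGTCTGGGCAAGCCTcccat
PURPL, chr5:27472222-27472341: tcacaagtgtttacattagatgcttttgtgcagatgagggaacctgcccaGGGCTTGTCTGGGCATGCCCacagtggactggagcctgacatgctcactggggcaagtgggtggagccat
ENSG00000289578, chr7:121151299-121151418: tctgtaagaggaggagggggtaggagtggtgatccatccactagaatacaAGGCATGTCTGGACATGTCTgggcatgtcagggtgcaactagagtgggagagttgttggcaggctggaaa
ENSG00000225420, chr2:88837951-88838070: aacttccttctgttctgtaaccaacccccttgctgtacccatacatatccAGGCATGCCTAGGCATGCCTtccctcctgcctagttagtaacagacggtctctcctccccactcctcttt
LINC01164, chr10:133609932-133610051: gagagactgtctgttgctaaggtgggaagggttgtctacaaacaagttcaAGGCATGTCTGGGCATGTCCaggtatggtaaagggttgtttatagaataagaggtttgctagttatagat

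A second set is shown because it recurred at the starts of interferon-stimulated genes. It consists of GAAA and GAAA spaced by 2 bases, or the reverse complement, here called an interferon response element. Capitals mark the element closest to the summit of the enhancer, that is, the base with the highest signal.
APOL1, chr22:36649116-36649145: tgactttcacTTTCCCTTTCgaattcctcg
GBP3, chr1:89488528-89488557: agagcctaatGAAACTGAAAgtacttcttt
PARP14, chr3:122399647-122399676: tccaggaaacGAAAGCGAAAgagtcaaagt
IFIT3, chr10:91087582-91087691: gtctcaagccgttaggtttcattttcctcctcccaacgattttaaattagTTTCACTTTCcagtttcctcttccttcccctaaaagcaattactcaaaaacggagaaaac
APOL3, chr22:36556843-36556872: acccaaaaggGAAAGTGAAAgtcacaactt
RTP4, chr3:187086145-187086174: accgaacaccGAAACTGAAActgtttgtct
ERAP2, chr5:96212164-96212193: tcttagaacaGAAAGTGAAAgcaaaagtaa

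The activity of the closed start enhancers spanned a wide range around a modest centre. Fold enrichment is the authors' ratio of output over scaled input at the summit, with 1 fragment added to both sides, so it is lower than the plain ratio of the 2 counts. Its median over the 3890 regions was 3.00 with quartiles of 2.55 and 3.65. The weakest region had 1.60 and the strongest 48.4. Behind these ratios stood a median of 49 output fragments (21 to 802) against a median of 15.5 scaled input fragments. A fold above 5 was found for 284 regions (7.30%) and a fold above 10 for 48 (1.23%, Wilson interval 0.932 to 1.63%). A q-value under 1e-10 was reached by 1500 closed start enhancers (38.6%, Wilson interval 37 to 40.1%), where 38% of all 94527 enhancers reached it. The share of strong calls among the closed start enhancers was thus near that of the whole list.

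The next question was whether activity differed from that of comparable enhancers. Welch's test was run over regions for 4 measures against 3 sets, with p-values adjusted over these 12 tests. The log2 fold enrichment averaged 1.66 ± 0.49 (SD, n = 3890) for closed start enhancers and 1.76 ± 0.57 (SD, n = 4502) for enhancers at starts that overlap a DNase I site. The difference of -0.10 was small beside the spread within each set, with a 95% interval from -0.12 to -0.08 (adjusted p = 6.72e-18). Against the 24682 closed enhancers lying 1 to 10 kb from a start, no difference was detected (adjusted p = 0.685), and the interval of the difference ran from -0.02 to 0.01. Against the 327 closed enhancers at starts inside an ATAC-seq peak the interval ran from -0.08 to 0.04 (adjusted p = 0.621), although with a distance limit of 500 bases this difference was -0.096 and passed the test (adjusted p = 0.0481). Regions are not replicates of a condition, so these p-values measure the spread between regions and not between cultures.

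Against open enhancers at starts, the input differed more than the activity did. The scaled input, a measure of how often the stretch was present in the plasmid library, averaged 3.95 ± 0.60 (SD, n = 3890) on the log2 scale for closed start enhancers and 4.44 ± 0.51 (SD, n = 4502) for open ones at starts, a difference of -0.49 (adjusted p = 1.64e-318, Welch's test). Compared with closed enhancers further out it was higher by 0.11 (3.95 ± 0.60 against 3.85 ± 0.60, adjusted p = 6.11e-24). Against the closed enhancers inside an ATAC-seq peak the difference of -0.09 (adjusted p = 0.0177) did not hold up, turning to 0.047 (adjusted p = 0.475) when only starts of genes in the mRNA-seq table were used. At 395 closed start enhancers (10.2%) the input was at the lowest level that occurs in the lists, 8.4 scaled fragments, against 55 (1.22%) of open ones at starts. Folds at such regions rest on an input that the peak caller set and did not count there.

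The strongest closed start enhancer lay 436 bases upstream of the long noncoding RNA LINC01707, at chr1:69520628-69521572. Its fold of 48.4 came from 465 output fragments against 8.63 scaled input fragments, each with 1 added, with a counting interval of 44.1 to 53. Intervals of this kind take in the counting error of the output fragments and nothing else. The second, at chr6:36643765-36645578, had its summit 16 bases upstream of a start of CDKN1A, which encodes the cell cycle inhibitor p21. It had a fold of 36.6 (interval 33.9 to 39.3) from 710 output fragments. An intron of TMEM30A, which encodes a subunit of phospholipid flippases, held the third, with its summit 548 bases downstream of a start and a fold of 33.7 (interval 30.1 to 37.7). PTCHD4, a Patched family gene that is a known p53 target, followed with 31.9 (interval 28.5 to 35.5), its summit 23 bases upstream of the start. From CDKN1A down, the intervals of neighbours in this order overlapped, so neighbouring regions cannot be ranked.

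The remaining regions among the 10 strongest lay mostly at noncoding genes. The lncRNA gene ENSG00000228528 had 31.3, the lncRNA LCAL1 31.2, PURPL 28.2, ENSG00000289578 27.8, the pseudogene RPL23AP53 27.6 and ENSG00000261584 23.9. LCAL1 had the most output fragments of all closed start enhancers, 802 against 24.7 scaled input fragments. PURPL is a long noncoding RNA that p53 switches on and that in turn keeps p53 levels low. The 40 strongest were all at or above a fold of 11.2. Of these, 23 lay nearest the start of a long noncoding RNA and 12 nearest a protein-coding gene. Over all closed start enhancers the shares were 34.8% and 24.9%. A summit upstream of the start was found in 30 of the 40, against 45.6% of all closed start enhancers. Of the 40, 6 had an input at the lowest level, TMEM30A and RPL23AP53 among them, against 10.2% of all closed start enhancers. The nearest ATAC-seq peak of either condition was over 10 kb away for 22 of the 40. Over all closed start enhancers, 26.5% had a peak of TSA-treated cells within 10 kb and 24.6% one of DMSO-treated cells.

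**Figure D1:**
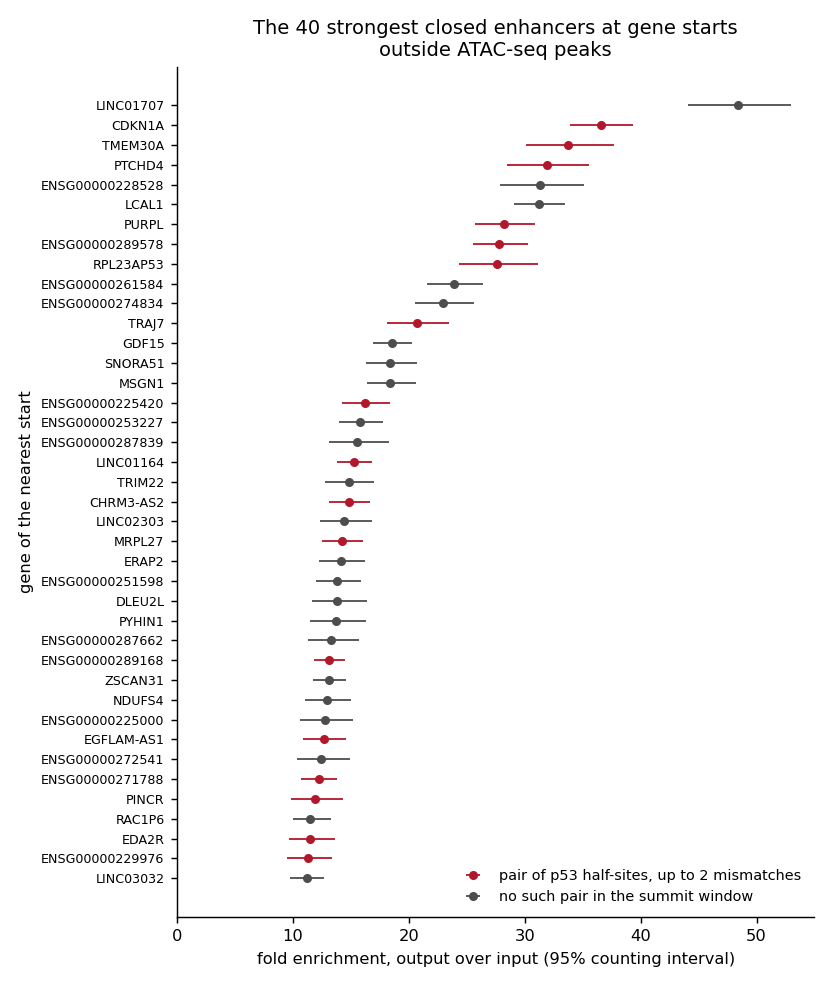
Fold enrichment of the 40 strongest closed enhancers at gene starts outside ATAC-seq peaks, with 95% counting intervals of the output fragments and the gene of the nearest start on the vertical axis. Red points have a pair of p53 half-sites with up to 2 mismatches within 300 bases at the summit (17 of 40), among them CDKN1A (36.6) and PTCHD4 (31.9).

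Pairs of p53 half-sites were rare among the closed start enhancers and frequent among the strongest of them. A complete pair was found within 300 bases at the summit of 11 regions (0.283%, Wilson interval 0.158 to 0.506%), and their median fold was 15.3. All 11 had a fold above 5, and 4 were among the 10 strongest. With up to 2 mismatches outside the cores, a form of the search chosen after the data had been seen, the count was 85 (2.19%) and their median fold was 5.83, against 2.99 for the regions without. That share was 1.17% among regions at starts of mRNA-table genes and 1.21% at protein-coding starts. This looser pair was present in 6 of the 10 strongest, in 32 of the 100 strongest and in 19 of the 48 with a fold above 10 (39.6%). It was present in 12 of the 1829 regions with a fold from 2 to 3 (0.656%) and in 0 of the 109 with a fold up to 2, which allows a share of up to 2.75%.

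The pair also occurred away from starts. Among all enhancers 2.62% held the looser form and among closed enhancers 1 to 10 kb from a start 2.8%, against 2.19% of the closed start enhancers. Open enhancers at starts held it in 0.933% of cases and the 35116 RefSeq promoters of GRCh38.p14, windows of the same length, in 0.157%. All enhancers with the looser pair had a median fold of 5.11. The pair lay close to the summit, at a median of 35 bases, and in 53 of 85 regions (62.4%) within 50 bases of it. Among the 48 regions with a fold above 5 the share within 50 bases was 77.1% (Wilson interval 63.5 to 86.7%), against 43.2% (28.7 to 59.1%) of the 37 with a fold up to 5.

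**Figure D2:**
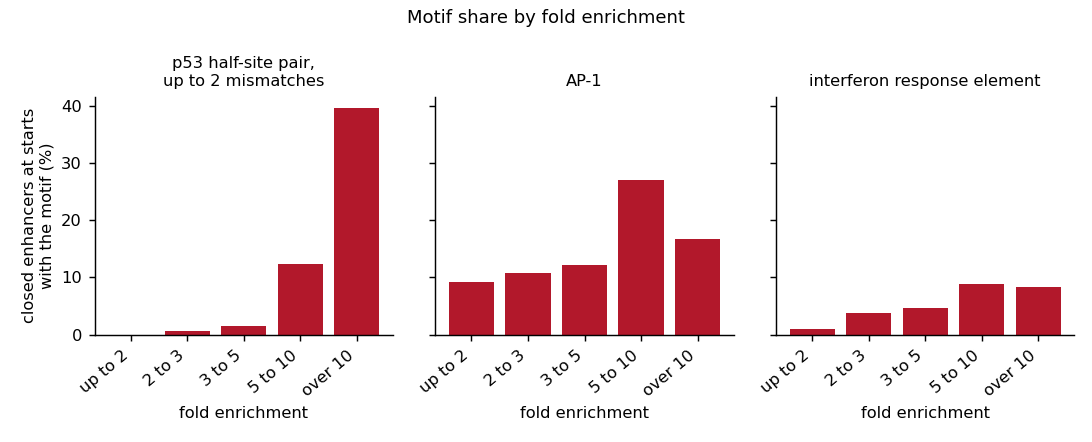
Share of closed start enhancers (vertical axis, %) with each motif in 300 bases at the summit, by fold enrichment (horizontal axis). The p53 pair with up to 2 mismatches was present in 39.6% of the 48 regions with a fold above 10, against 1.50% of the 1668 with a fold from 3 to 5, while AP-1 was most frequent between 5 and 10 (27.1%) and the interferon response element reached 8.90% there.

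Known p53 target genes showed this pattern in part. Of 56 listed targets with an annotated start, 5 had a closed start enhancer (8.93%), against 985 of 20149 protein-coding genes (4.89%). An open enhancer at a start was found for 34 of the 56 (60.7%), against 4424 protein-coding genes (22%). Among the 5 were CDKN1A at 36.6, GDF15, a stress-induced growth factor, at 18.5, TRIM22, a gene switched on by p53 and by interferon, at 14.8, and EDA2R, a receptor of the tumour necrosis factor family, at 11.5. The looser pair was found at CDKN1A and EDA2R, TRIM22 had a pair with 3 mismatches, and at GDF15 no pair with both cores lay in the window. Expression differed between them, with 7.61 for CDKN1A and 6.47 for GDF15 on the log2 CPM scale, and -0.09 for TRIM22 and -1.67 for EDA2R. Of the 85 regions with the looser pair, 32 lay nearest a long noncoding RNA, as did 34.8% of all closed start enhancers. PINCR, an RNA induced by p53, was among the 32, with a fold of 11.9.

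Interferon-stimulated genes were another listed group with several regions above a fold of 5. Of 77 listed genes 11 had a closed start enhancer (14.3%, against 4.89% of protein-coding genes), 17 regions in all, and their highest folds had a median of 5.73, against 2.97 for protein-coding genes. An open enhancer at a start was more frequent, found for 27 of the 77 (35.1%, against 22% of protein-coding genes). TRIM22 led with 14.8, followed by APOL1, which encodes an apolipoprotein that kills trypanosomes, at 8.08, the guanylate-binding protein gene GBP3 at 6.70 and PARP14, a mono-ADP-ribosyltransferase gene, at 6.30. An interferon response element lay within 300 bases at the summit for 6 of the 17 regions, at APOL1, GBP3, PARP14, IFIT3, APOL3 and RTP4. APOL1, GBP3, APOL3 and RTP4 had a single region each, while at PARP14 and IFIT3 the element lay at the strongest of their regions. Those elements stood between 1 and 124 bases from the summit. IFIT3 and MX1 each had 3 closed start enhancers, at 5.99, 3.73 and 2.57 for IFIT3 and at 2.88, 2.84 and 2.45 for MX1. Expression of the 11 genes ranged between -2.55 (RTP4) and 4.10 (SP110) log2 CPM, and 5 of the 11 were under 1 CPM, against 27 of the 77 on the list.

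Over all closed start enhancers the interferon response element occurred in 175 (4.50%, Wilson interval 3.89 to 5.20%), against 3.4% (2.91 to 3.97%) of open enhancers at starts and 3.79% of all enhancers. The median fold of the 175 was 3.26, against 3.00 for the regions without it. Outside the gene list it was found at ERAP2, whose product trims peptides for antigen presentation, with a fold of 14.1 and an element 8 bases from the summit. At NDUFS4, a subunit gene of respiratory complex I, the fold was 12.9. PYHIN1, an interferon-inducible gene of the HIN-200 family, had a fold of 13.7 without an element in the window.

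AP-1, the dimer of JUN and FOS proteins, binds TGANTCA. This word was found in 483 closed start enhancers (12.4%, Wilson interval 11.4 to 13.5%), against 6.24% (5.57 to 6.99%) of open enhancers at starts, 11.6% of all enhancers and 7.71% of RefSeq promoters. The median fold with it was 3.13, against 2.98 without. Among the 236 regions with a fold between 5 and 10 it was present in 64 (27.1%). The region with the most copies lay in an intron near the lncRNA gene ENSG00000290808 and had a fold of 6.77. TRAJ7, a joining segment of the T cell receptor alpha locus, had a fold of 20.7, and its summit window held both AP-1 words and a p53 pair with 2 mismatches.

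Most closed start enhancers lacked the sequence of CpG-rich promoters. Their 300-base summit windows had a GC content of 49.8% ± 6.61 (SD, n = 3890), against 61.2% ± 7.24 (SD, n = 4502) for open enhancers at starts, a difference of -11.4 percentage points that passed Welch's test, with a 95% interval from -11.7 to -11.1. It was higher by 1.54 points than that of closed enhancers 1 to 10 kb from a start (49.8% ± 6.61 against 48.3% ± 5.96, adjusted p = 1.27e-41). Compared with closed enhancers at starts inside an ATAC-seq peak it was lower by 2.02 points (adjusted p = 1.34e-06), but by 0.231 points (adjusted p = 0.751) with starts of mRNA-table genes alone. The ratio of observed to expected CpG had a median of 0.23 for closed start enhancers and 0.73 for open ones. A ratio above 0.6 occurred in 246 closed start enhancers (6.32%), against 3003 open ones (66.7%), 86 inside an ATAC-seq peak (26.3%) and 519 of those further out (2.10%).

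Motifs of such promoters followed the same split. The GC box GGGCGG, bound by SP and KLF proteins, was present in 8.35% of closed start enhancers (Wilson interval 7.53 to 9.27%), against 46.1% of open enhancers at starts, 5.75% of closed enhancers further out and 45.0% of RefSeq promoters. The ETS word CCGGAAGT was present in 0.771%, against 8.24% of open ones, the NRF1 word, GCGC and GCGC spaced by 2 bases, in 0.540%, against 9.53%, and the CRE word TGACGTCA in 0.334%, against 3.04%. The YY1 word AANATGGC was present in 6.99%, against 14.3%. All words were searched on both strands, and a match is a description of the letters and not of a bound site.

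Other words had shares near those of closed enhancers away from starts. The TATA box TATAAA was slightly less frequent, present in 13.1% of closed start enhancers (Wilson interval 12 to 14.2%). Closed enhancers 1 to 10 kb from a start had it in 14.3% (13.8 to 14.7%), and open ones at starts in 3.71%. The androgen response element half-site AGAACA was present in 21.3%, against 21.2% of those further out and 11.6% of open ones. The CCAAT box was present in 33.7%, against 33.4% of those further out and 26.5% of open ones. The forkhead word TGTTTAC, bound by FOXA1, was present in 4.16% of closed start enhancers (Wilson interval 3.58 to 4.84%) and 4.34% of those further out, while the 327 closed enhancers at starts inside an ATAC-seq peak had it in 14.1%.

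**Figure D3:**
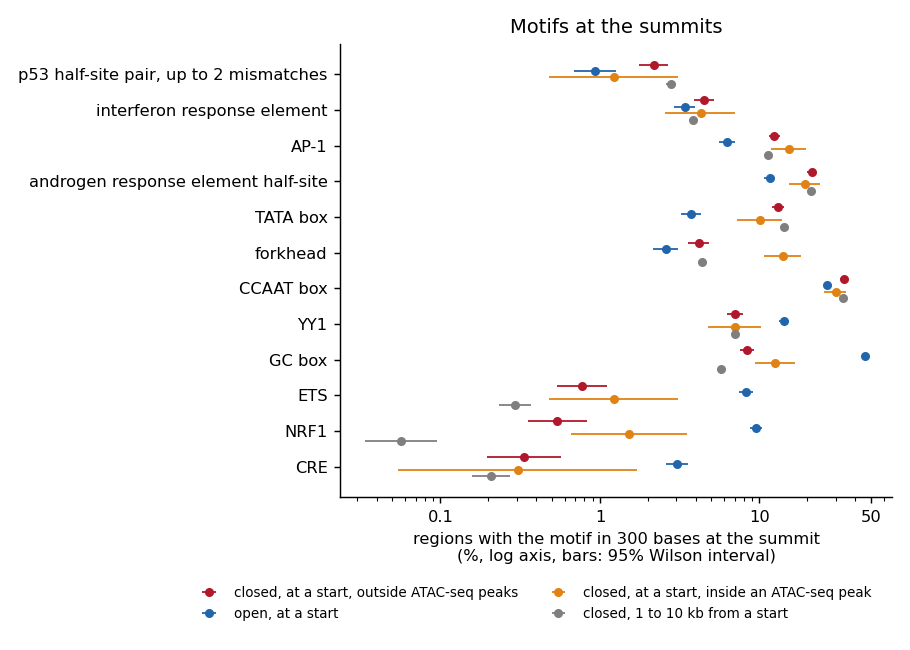
Share of regions with each motif within 300 bases at the summit (log axis, %) in the 4 sets, with 95% Wilson intervals. The closed start enhancers (red) hold the GC box in 8.35% of regions and NRF1 in 0.540%, while the open enhancers at starts (blue) hold them in 46.1% and 9.53%, and forkhead is highest inside ATAC-seq peaks (14.1%).

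The position relative to the start differed as well. The summit lay within 100 bases of the nearest start in 756 closed start enhancers (19.4%, Wilson interval 18.2 to 20.7%), against 2000 open ones (44.4%, 43.0 to 45.9%). Within 250 bases the shares were 38.6% and 69.1%. The summit was upstream of the start in 45.6% of closed start enhancers and 45.0% of open ones. The median length was 542 bases for closed start enhancers and 624.5 bases for open ones. At the edge of the distance limit stood the regions at ARMCX3-AS1, LINC02492 and ANKRD46, with centres 1000, 999 and 999 bases from a start and folds of 2.36, 4.66 and 3.30. Just beyond it were those at EAF1-AS1, RNA5SP130 and RPS3AP47, each at 1001 bases, with folds of 2.71, 2.64 and 2.93.

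**Figure D4:**
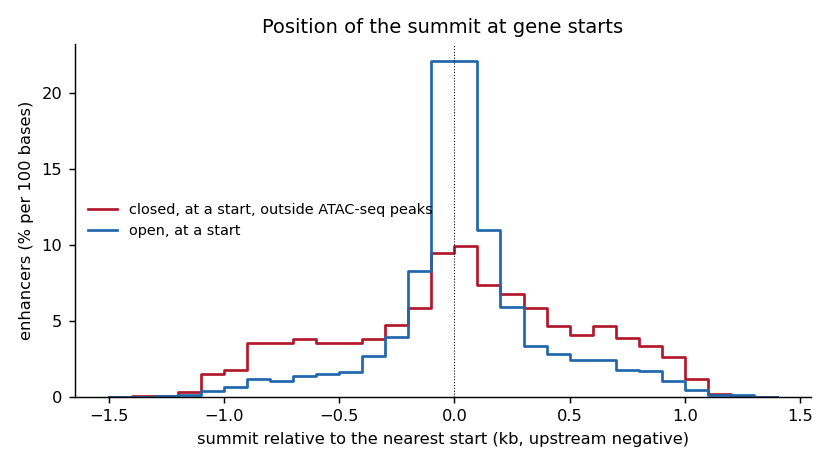
Distance of the summit to the nearest start (horizontal axis, kb, upstream negative) against the share of enhancers per 100 bases (vertical axis, %). Closed start enhancers (red) reach 9.92% in the first 100 bases downstream of the start, and open enhancers at starts (blue) reach 22.1%.

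The genes at these starts were of other kinds than those of open enhancers. Long noncoding RNAs were nearest to 1354 closed start enhancers (34.8%), pseudogenes to 1050 (27%) and protein-coding genes to 967 (24.9%). Of all start sites in the annotation, 25.7% belong to long noncoding RNAs, 13.9% to pseudogenes and 51.0% to protein-coding genes. Open enhancers at starts had 16.9% at long noncoding RNAs, 2.09% at pseudogenes and 78.5% at protein-coding genes. Small RNAs were nearest to 270 closed start enhancers (6.94%), microRNAs to 137 (3.52%) and segments of immune receptor genes to 46 (1.18%). Median folds differed little between these kinds, from 2.92 at genes annotated as to be experimentally checked to 3.16 at immune receptor segments, but 27 of the 48 regions with a fold above 10 lay nearest a long noncoding RNA.

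Examples from each kind had folds well above these medians. Among pseudogenes RPL23AP53 had 27.6, RAC1P6 11.5 and NUTF2P7 11. Among small RNAs SNORA51 had 18.4, SNORA48 10.5 and RN7SL576P 8.77. MIR370, a microRNA of the imprinted cluster on chromosome 14, had 8.63, with its summit 212 bases upstream of the hairpin. Most genes had a single region, since 3771 genes were nearest to a closed start enhancer and 107 of them to 2 or more. DRAIC, a long noncoding RNA known from prostate cancer, and PWRN1, a noncoding RNA of the Prader-Willi region, had the most with 4 each. Per 1000 start sites the number ranged from 23.7 on the X chromosome to 51 on chromosome 21, among the autosomes and X.

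The next measure was whether a region lay at the principal start of its gene. Of 967 regions nearest a protein-coding gene, 389 lay nearest the start of the transcript that the annotation ranks as canonical (40.2%, Wilson interval 37.2 to 43.4%), against 1627 of 3534 open enhancers (46.0%, 44.4 to 47.7%). Of all protein-coding starts 35.3% are of that kind, a lower share than in either set. At long noncoding RNAs the shares were 68.2% for closed start enhancers and 67.5% for open ones, against 60.1% of all such starts.

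Expression of the genes at the starts was lower than for any of the sets compared. Genes were counted up to 10 kb from the centre for closed enhancers 1 to 10 kb out, and up to 1 kb for the other sets. The median was -0.28 log2 CPM for the 1046 genes of closed start enhancers (quartiles -2.34 and 3.82), 5.27 for the 3735 genes of open enhancers at starts, 3.26 for the 165 genes of closed enhancers inside an ATAC-seq peak and 3.27 for the 7523 genes of closed enhancers further out. With genes common to both sets left out, the mean was 0.55 ± 3.26 (SD, n = 951) at closed and 4.80 ± 2.53 (SD, n = 3640) at open start enhancers, a difference of -4.25 with an interval from -4.47 to -4.03 (adjusted p = 6.11e-206, Welch's test over genes). Against closed enhancers inside an ATAC-seq peak the difference in the same test was -2.12 (n = 1037 and 156, interval -2.68 to -1.56, adjusted p = 3.55e-12). Against those 1 to 10 kb out it was -2.15 (n = 523 and 7000, interval -2.45 to -1.86, adjusted p = 6.20e-40). This last comparison left out 523 shared genes, and the remaining genes of closed start enhancers had a median of -1.15. Genes are not replicates, and in bulk RNA fewer cells that express a gene and less RNA per cell cannot be told apart.

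**Figure D5:**
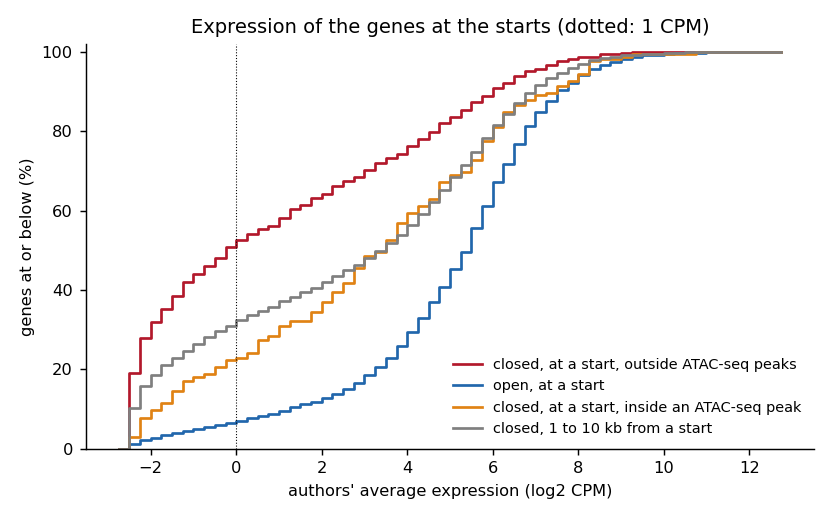
Share of genes (vertical axis, %) at or below each level of the authors' average expression (horizontal axis, log2 CPM) for the genes of the 4 sets. Starts up to 10 kb away were counted for closed enhancers 1 to 10 kb out, and up to 1 kb for the other sets. The curve of the closed start enhancers (red) has passed 52.5% at 1 CPM (dotted line), that of the open enhancers at starts (blue) 7.12%.

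The level differed by the kind of start and by the surroundings of the region. At canonical starts the median of 386 genes was -1.69 log2 CPM and 68.7% were under 1 CPM (Wilson interval 63.9 to 73.1%), while at other starts the median of 635 genes was 1.23 and 43.0% were under 1 CPM (39.2 to 46.9%). A gene can be transcribed from one start while another of its starts is closed. Of the 1046 genes, 95 also had an open enhancer at a start, and their median was 4.47, against -0.70 for the 951 that had none. By distance to the nearest ATAC-seq peak, 13.7% of 73 genes were under 1 CPM where a peak lay within 500 bases, 37.3% of 67 genes at 500 to 2000 bases, 49.3% of 217 genes at 2 to 10 kb and 58.6% of 700 genes beyond 10 kb.

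Stronger regions had start genes with a higher median level but no clearly different share under 1 CPM. Genes at regions with a fold above 5 had a median of 0.86 log2 CPM and 44.6% under 1 CPM (Wilson interval 33.8 to 55.9%, 74 genes), against -0.30 and 52.9% (49.8 to 56.0%, 983 genes) at the weaker regions. Those intervals overlap. Among genes at regions with a q-value under 1e-10, those with high averages included TSC22D1, a gene induced by TGF-beta, at 8.30 with a fold of 4.36. Others were the ubiquitin ligase gene NEDD4L at 8.04 with 3.45, the poly(A)-binding protein gene PABPC3 at 7.98 with 3.87 and the cathepsin gene CTSB at 7.89 with 3.29. At the other end MSGN1, a regulator of paraxial mesoderm, PYHIN1, TRPC2 and TNIP3 stood at the lowest average in the table, -2.62, with folds of 18.4, 13.7, 9.67 and 6.38. Of the 1046 genes, 141 were at that lowest value.

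Most closed start enhancers were far from the ATAC-seq peaks of both lists. The nearest ATAC-seq peak lay at a median of 24.9 kb in TSA-treated cells (quartiles 9.38 and 59.2 kb) and 27.7 kb in DMSO-treated cells (10.2 and 66.7 kb). A peak within 1 kb was found for 184 regions (4.73%) with TSA and 170 (4.37%) with DMSO, 55 with TSA and not DMSO and 41 with DMSO and not TSA. The TSA list is longer, with 40995 peaks against 38813. At CDKN1A the nearest peak was 0.542 kb away in TSA-treated cells and 308 kb away in DMSO-treated cells. At MRPL27, a mitochondrial ribosomal protein gene with a fold of 14.2, these distances were 0.625 and 23.4 kb, and at GBP3 3.75 and 28.1 kb. The order was the other way at EDA2R, 71.4 kb with TSA and 4.30 kb with DMSO, and at the pseudogene RAC1P6, 106 kb with TSA and 0.415 kb with DMSO. The pooled lists allow no test of these differences.

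Of the 327 closed start enhancers left out for their ATAC-seq peaks, 172 overlapped a peak of both conditions, 121 one of TSA-treated cells alone and 34 one of DMSO-treated cells alone. The ATAC-seq lists do not hold every open site. Of the 4502 enhancers at starts with a DNase I site, 960 (21.3%) shared no base with a peak of either list.

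The share of genes with a closed start enhancer, 4.89% over all protein-coding genes, varied between the listed groups. Of 150 chemokine, interleukin and receptor genes 24 had one (16.0%), with folds from 2.03 (CX3CR1) to 4.46 (CCL18), and 22 of the 24 were under 1 CPM, as were 109 of the 149 measured genes of the list. IL23R had 4.27 and IL10, an anti-inflammatory cytokine, 4.24. Of 46 genes of the epidermal differentiation complex, which build the cornified envelope of skin, 7 had one (15.2%), all under 1 CPM like 45 of the 46 on the list, led by SPRR2F at 5.43 and LCE2B at 4.46. Of 121 germline and cancer-testis genes 15 had one (12.4%), with DDX4, a germ cell helicase, at 4.58, MAGEB2 at 4.37 and NLRP4 at 3.47, and 10 of the 15 were under 1 CPM, against 79 of 121 on the list. A single gene of each of the last 2 groups had an open enhancer at a start, which 22% of all protein-coding genes had.

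Other groups had folds near the median of the set. Olfactory receptor genes had a closed start enhancer in 28 of 415 cases (6.75%), with a median fold of 3.09 and all 28 under 1 CPM, as were 361 of the 370 measured on the list. Keratin and keratin-associated genes had 11 of 149 (7.38%), led by KRTAP25-1 at 3.90. Solute carrier genes had 26 of 341 (7.62%), led by SLC13A3, a citrate-cycle intermediate transporter, at 5.93. Ion channel and neurotransmitter receptor genes had 19 of 266 (7.14%), among them the potassium channel gene KCNN3 at 6.60, which was expressed at 0.23 log2 CPM.

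Zinc finger genes had 33 of 566 (5.83%), and 8 of the 33 were under 1 CPM, against 46 of the 543 measured on the list. ZSCAN31 had the highest fold of these with 13.1, followed by ZNF540 at 5.88. Homeobox genes had 4 of 139 (2.88%) and neuronal genes bound by the repressor REST 2 of 67 (2.99%). No closed start enhancer was found at 37 androgen-responsive genes, which allows a share of up to 8.11%, or at 66 protocadherin genes, which allows up to 4.55%. Ribosomal protein genes had 2 of 82 (2.44%), and an open enhancer at a start in 70 (85.4%).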

How the data were processed

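The members and lists were chosen with earlier results of these data known. STARR-seq reads were aligned by the authors (Bowtie, hg19) and duplicates collapsed (Picard). MACS2 was run once on the 2 output replicates together, with the input as control, and kept a q-value under 0.05. The deposited lists give a score, the fold as a ratio of output over scaled input, and p-values and q-values as −log10. Open enhancers also carry a deposited score of a DNase I site. ATAC-seq peaks carry a deposited Fseq score from libraries pooled per condition (Bowtie, cutadapt, Bowtie2, Picard). For mRNA-seq, the authors used TopHat and edgeR, and their deposited average per gene is in log2 CPM. Their versions are not stated in the sources. The authors' tables of TSA against vehicle also hold log2 fold changes, likelihood ratios, p-values and q-values, which were not used.

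Output fragments and scaled input were recovered from fold and p-value, and came out whole within 0.01 for 94521 of 94527 enhancers. Starts were those of 119016 basic transcripts (GENCODE 44 lift37, 110199 distinct starts), to which 20826 of 22336 table genes were matched. A gene's level is that of the nearest start in the table within 1 kb of the centre. For closed enhancers 1 to 10 kb from a start this limit was 10 kb. Motifs were counted in 300 bases at the summit on GRCh37, with RefSeq promoters for comparison. Sets were compared by two-sided Welch's tests with Benjamini-Hochberg adjustment over 12 tests, with adjusted p under 0.05 as the threshold, and shares carry 95% Wilson intervals. Procedures were tested on simulated data. Python 3.11.15, scipy 1.17.1, pandas 2.3.3, pysam 0.24.0, mpmath 1.4.1 and matplotlib 3.10.9 were used. Named genes were the 10 strongest regions, the 5 with the highest and the 5 with the lowest expression at a q-value under 1e-10, up to 4 per gene list, up to 3 per gene type or motif and 3 on either side of the distance limit, and others were chosen after their values were seen. A few of the items so named are not reported here. Alternatives covered the start sites, the distance, the ATAC-seq rule, the q-value, the input and repeated sequence.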

Additional observations from a re-analysis of the deposited data

How the results depend on the processing

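No paired analysis was possible because the deposited lists pool the replicates, and no library could be left out for the same reason. The alternative without soft-masked repeats was not run, since the reference used carries no soft-masking. In its place, chosen after seeing the data, enhancers whose summit words of 24 bases occur 10 or more times in the genome were left out. Of 120 alternative values of the 12 tests, 112 kept their direction and their side of the threshold. The exceptions all concern closed enhancers at starts inside an ATAC-seq peak, the smallest set. For the log2 scaled input the difference turned to 0.047 with starts of mRNA-table genes and 0.043 with protein-coding starts, and missed the threshold at -0.073 with 500 bases, -0.042 without input background and -0.060 without repeated words. For GC content it missed it at -0.231 with mRNA-table starts and -0.457 with protein-coding starts, and for log2 fold it passed at -0.096 with 500 bases. The cause was not tested.

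The number of regions was 1107 with mRNA-table starts, 992 with protein-coding starts and 2400 with 500 bases, as fewer starts or a shorter reach leave fewer regions. The share of genes under 1 CPM became 31.9% under a limit of 0.25 CPM and 87% with regions that have no gene in the table counted as under it. The share with a q-value under 1e-10 was 40.1% with 500 bases and 44.5% among q-values under 1e-05. Motif shares moved with mRNA-table and protein-coding starts to 11.5% and 11.9% for the GC box, 29% and 28.4% for the CCAAT box, 5.60% and 5.75% for the interferon response element, 3.52% and 3.53% for forkhead, 8.04% and 7.96% for YY1, 0.903% and 0.907% for NRF1, 4.34% and 3.83% for the E-box, 1.17% and 1.21% for NF-kB and, with protein-coding starts, 1.71% for GRHL. With 500 bases they were 9.62% for the GC box, 1.12% for ETS and 0.833% for NRF1, without input background 12% for the TATA box, and without repeated words 3.56% for forkhead. The looser p53 pair was at 1.17% with mRNA-table starts and 1.21% with protein-coding starts.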
